A study of Mus musculus with 9 samples.

Results

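The 10 heat shock protein genes described here encode cytosolic and mitochondrial chaperones, measured in the mouse anterior lens capsule, the membrane over the front of the lens together with the epithelium attached to it. They were chosen by gene symbol: Hspa1a, Hspa1b, Hspa8, Hsph1, Hsp90aa1, Hsp90ab1, Hspb1, Dnajb1, Hspd1 and Hspe1, which make up 10 of the 17527 genes in the count table. All 10 were detected and passed the filter on low counts. The study has 9 libraries, 3 from each of 3 groups. The first group is young controls, another is old (here aged) controls, and the third is old animals treated with EGCG, short for epigallocatechin gallate, the main catechin in green tea. The series title names cataract of old age as its subject. The sources used here give no age, strain, sex, dose or route. Nor do the labels state that each library is a different animal: p-values therefore reflect the spread among libraries of a group, and that spread may be technical.

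Heat shock proteins are chaperones, proteins that bind unfolded or partly folded proteins and keep them from aggregating. HSP70 proteins bind short exposed stretches and release them as they hydrolyse ATP, J-domain proteins bring the client and start the hydrolysis, HSP110 proteins exchange the nucleotide, and HSP90 proteins take over clients near their final fold. Small heat shock proteins hold clients without ATP, and mitochondrial HSP60 folds proteins in a chamber that HSP10 closes. Lens fibre cells keep their proteins for life, and the small heat shock proteins of the crystallin family are among the most abundant proteins of the lens.

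Each library held between 13184169 and 16528179 counts. The TMM factors of edgeR, which put the bulk of genes at the same level, ran from 1.118 to 1.131 in the young controls, from 0.881 to 0.926 in the aged controls and from 0.981 to 0.989 with EGCG. Unless FPKM is named, a level is in TMM CPM: the count relative to the library's total after its factor is applied. All 12 lens epithelium markers passed the filter and summed to 2794 to 2839 TMM CPM in the young, 4271 to 4425 in the aged and 4080 to 4173 in the EGCG libraries. All 16 lens fibre markers passed as well, and they summed to 145583 to 148622 TMM CPM in the young, 198727 to 229198 in the aged and 170668 to 174218 in the EGCG libraries. The retina markers, genes of another tissue of the eye, also differed by group: all 32 were lower with age, 31 were higher with EGCG than in aged controls, and they summed to 26691 to 26884 TMM CPM in the young, 1623 to 1681 in the aged and 11788 to 12019 in the EGCG libraries. Red blood cell markers ran in the same order as the retina markers, at 205 to 215, 6.33 to 7.98 and 20.1 to 25.5 TMM CPM. In a bulk sample, fewer cells of a type and less RNA per cell cannot be told apart. Pigment cell and iris markers (8 genes) summed to 221 to 230 TMM CPM in the young libraries. They summed to 282 to 294 in the aged and 184 to 193 in the EGCG libraries. By TMM, Hspa1b and Hsph1 had that order of groups, as did 6.32% of genes tested. By library size, Hsph1 was highest in the young. Of the 8 pigment markers, 4 were higher and 2 lower with age, and 3 were lower with EGCG than in aged controls. Endothelial and mural cell markers (12 genes) summed to 515 to 537, 877 to 929 and 649 to 684 TMM CPM in those groups, although by age 2 were higher and 9 lower. By TMM, that order of groups was also the order of the summed lens epithelium and lens fibre markers. Hspa8, Hsp90ab1, Dnajb1 and Hspd1 had that order too, as did 29.7% of genes tested. Between EGCG and aged control, however, Hspa8 and Hspd1 were not called, and by library size their means were highest with EGCG. By age 8 epithelium markers were higher and 2 lower, and 10 fibre markers higher and 6 lower. Between EGCG and aged control, 1 epithelium marker was higher and 5 lower, and 0 fibre markers were higher and 13 lower. Cornea markers were scarce, at 8.25 to 11.2 TMM CPM in the young, 1.72 to 2.43 in the aged and 0.951 to 1.99 with EGCG, with Krt14 and Aqp3 at 0 counts in the aged controls. The part of epithelium, retina, blood, fibre, pigment, vessel and cornea RNA in the results below was not tested.

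Upstream sequences are shown for Hspa1a and Hspa1b because they are nearly the same in both genes, and for Hspb1, Hspd1 and Hspe1 because they hold several matches to the heat shock element, the motif that heat shock factors bind. The motif was searched as GAANNTTC and as TTCNNGAA. Each is its own reverse complement, so 1 search covers both strands, and matches of the 2 forms may overlap each other. Sequences are from RefSeq's table for GRCm38.p6, printed 5′ to 3′ on the strand of the gene (plus strand for the stretch between Hspd1 and Hspe1). Capitals mark the motif matches. The printed stretches are the 250 bases before the start of Hspa1a (chr17:34972157-34972406, minus strand), of Hspa1b (chr17:34959239-34959488, minus strand) and of Hspb1 (chr5:135887669-135887918, plus strand), and 30 bases between the main starts of Hspd1 and Hspe1 (chr1:55088053-55088082, plus strand). The last stretch lies inside an annotated exon of another Hspd1 transcript, at chr1:55087989-55088243, while the other 3 overlap no annotated exon.
Hspa1a: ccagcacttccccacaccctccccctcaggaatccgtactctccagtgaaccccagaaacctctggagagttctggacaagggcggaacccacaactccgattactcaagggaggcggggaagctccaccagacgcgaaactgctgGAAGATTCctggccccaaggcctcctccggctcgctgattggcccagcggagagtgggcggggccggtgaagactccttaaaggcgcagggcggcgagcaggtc
Hspa1b: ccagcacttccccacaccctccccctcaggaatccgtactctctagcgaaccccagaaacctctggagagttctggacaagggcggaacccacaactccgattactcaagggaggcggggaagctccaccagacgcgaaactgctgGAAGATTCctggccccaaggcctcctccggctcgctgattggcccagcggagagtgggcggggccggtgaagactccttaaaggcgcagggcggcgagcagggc
Hspb1: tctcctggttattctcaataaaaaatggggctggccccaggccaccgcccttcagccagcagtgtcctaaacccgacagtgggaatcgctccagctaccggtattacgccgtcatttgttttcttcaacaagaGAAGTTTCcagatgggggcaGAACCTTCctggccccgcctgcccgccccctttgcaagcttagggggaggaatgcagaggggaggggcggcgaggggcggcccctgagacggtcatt
Hspd1-Hspe1: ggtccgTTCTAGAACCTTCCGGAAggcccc
The Hspa1a and Hspa1b stretches differed at 3 positions, C44T, T47C and T249G, counted from 1 at the 5′ end of the printed 250 bases with the Hspa1a base first. Each held 1 match of GAANNTTC, beginning 104 bases before the gene's start. Hspb1 held 2 matches of GAANNTTC, beginning 117 and 97 bases before the start. Hspd1 and Hspe1 are transcribed away from each other, and their main starts at 55088024 and 55088132 of chromosome 1 leave 107 bases between them. An unbroken run of 18 bases there held 1 match of GAANNTTC overlapping 2 of TTCNNGAA. RefSeq windows were at hand for 7 of the 10 genes, and 6 of the 7 held at least 1 match. Counted by window, since some genes have more than 1, a match was in 7 of 10. These are not all separate, as Hspd1 and Hspe1 share their run and the Hspa1a and Hspa1b stretches are nearly the same. Dnajb1 had none in its 250 bases, which says nothing of the factor. For comparison, 12.8% of 32851 upstream windows of 250 bases held either motif, 1.46% held at least 2 matches and 0.14% at least 3. A match is a description of the letters, not a binding site.

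All 10 transcripts differed between aged and young controls. Of these, 6 were higher with age and 4 lower: Hspb1 was 2.78-fold lower, Hspa8 2.04-fold higher and Hspa1b 1.69-fold higher, the 3 that moved most by TMM. Which moved most depends on the scaling: by library size alone Hspb1 (log2 -1.80) was followed by Hsp90aa1 (-0.91), Hspa8 (0.71), Hspa1a (-0.67) and Hspe1 (-0.66), with Hspa1b at 0.44. Of the 10 only Hsph1 turned with another scaling. A call is an edgeR quasi-likelihood adjusted p under 0.05, after Benjamini-Hochberg adjustment over the 13711 genes tested. Of all genes tested, 69.2% were called in this comparison, 35.4% higher and 33.8% lower; a call was therefore the common outcome in this comparison. Groups did not overlap in TMM CPM for any of the 10, against 72.1% of all genes tested. By library size, however, the young and aged ranges of Hsph1 overlapped. The median log2 fold change of the 10 was 0.38, beside 0.02 for all genes tested, and their median size without sign was 0.57, beside 0.59.

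Between EGCG and aged control libraries, 7 of the 10 were lower, 1 was higher and 2 were not called. Hspa1b was 2.2-fold lower, Hsph1 1.44-fold lower, Hspa1a 1.43-fold lower and Hspb1 1.4-fold lower, while Hsp90aa1 was 1.2-fold higher. The other 3 lower (Hsp90ab1, Dnajb1 and Hspe1) turned with lens fibre scaling. The share called among all genes tested was 24.1%, with 13.8% higher and 10.3% lower. In TMM CPM, 9 of the 10 did not overlap between the groups, against 33.5% of all genes tested. By library size, however, the ranges of Hspa1a, Hspa8, Hsp90ab1, Dnajb1, Hspd1 and Hspe1 overlapped. The median log2 fold change of the 10 was -0.21, beside a median that rounds to 0 for all genes tested. The median size was 0.24 beside 0.19 for all genes tested. This comparison and the one by age share the aged control libraries.

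Set against the young controls, EGCG libraries had 4 of the 10 higher and 6 lower, all called and without overlap. Here 63.6% of all genes tested were called, 32.3% higher and 31.4% lower, and 68.3% did not overlap. Higher were Hspa8 (log2 0.94), Hspd1 (0.57), Hsp90ab1 (0.42) and Dnajb1 (0.31, or 0.11 and not called in limma on log2(FPKM + 0.1)), and lower were Hspb1 (-1.96), Hspa1a (-0.87), Hspe1 (-0.56), Hspa1b (-0.38), Hsp90aa1 (-0.32) and Hsph1 (-0.29, or -0.08 and not called with the length trend removed). Their median was -0.30, beside -0.02 for all genes tested. Of the 10, 5 (Hspa1a, Hspa1b, Hsph1, Hspb1 and Hspe1) had their lowest group mean with EGCG, an order found in 20.9% of genes tested. The other 5 had the EGCG mean between the control means, as 59.5% of genes tested did. With library size as the only scaling, the same 5 genes were lowest with EGCG, and Hspa8 and Hspd1 became highest there. Under lens fibre scaling, which takes TMM factors from the 16 fibre markers alone, Hspe1 was no longer below the aged controls. By TMM over all genes, 13 of those 16 markers were themselves called lower with EGCG than in aged controls (median log2 -0.29).

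**Figure D1:**
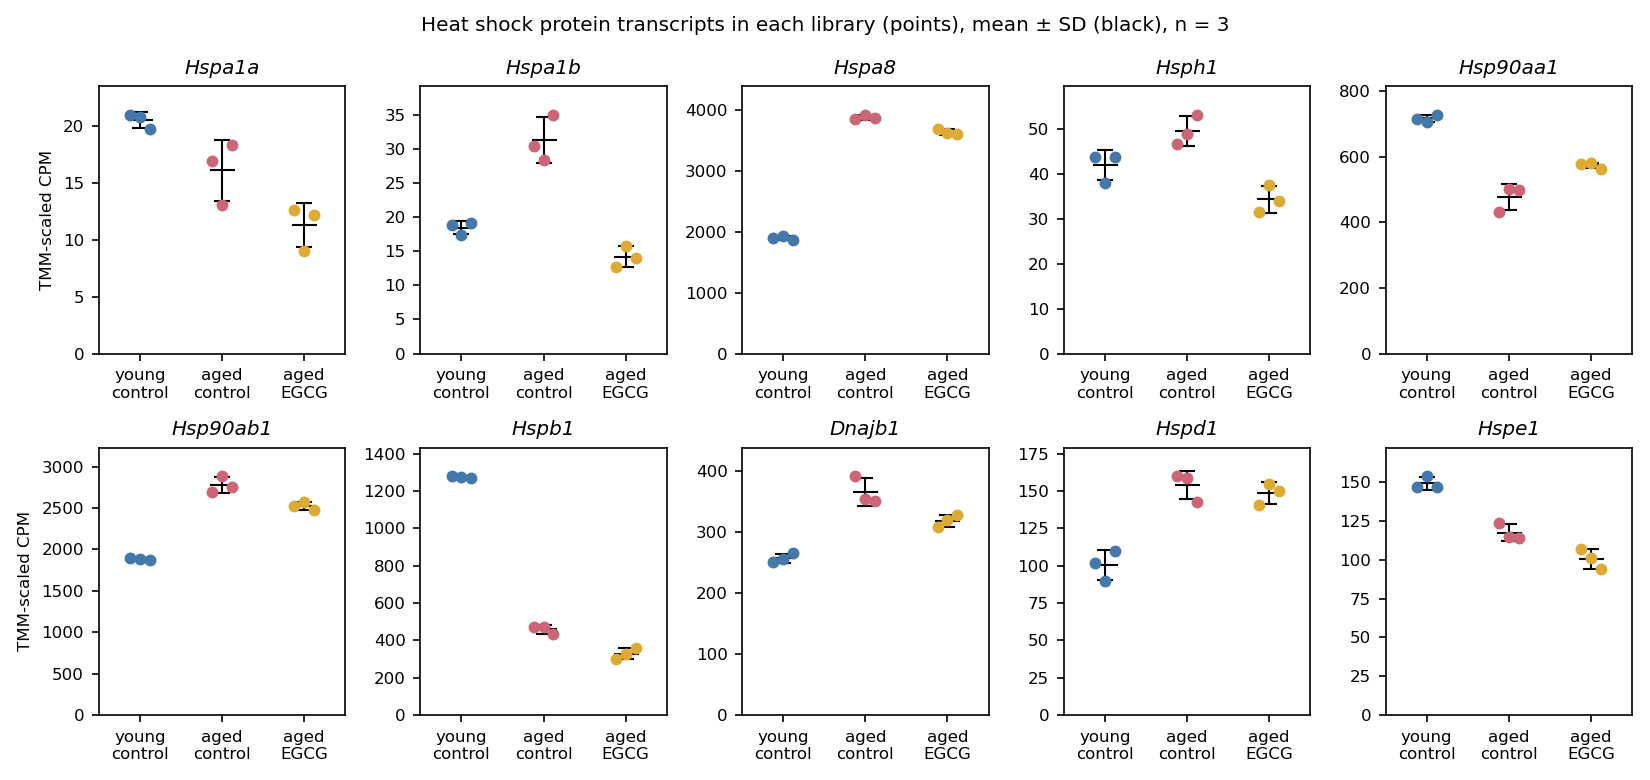
Each panel plots 1 transcript in TMM CPM (vertical axis from 0) for the 3 groups, with each library as a point and the mean ± SD in black (n = 3). The EGCG libraries lie below both control groups for Hspa1a, Hspa1b, Hsph1, Hspb1 and Hspe1. They lie between them for Hsp90aa1, Hspa8, Hsp90ab1 and Dnajb1, and overlap the aged controls for Hspd1. By library size, the aged and EGCG ranges of Hspa1a, Hspa8, Hsp90ab1, Dnajb1, Hspd1 and Hspe1 overlap.

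Hspa1a and Hspa1b encode the stress-inducible HSP70, are transcribed from 2 neighbouring genes on the minus strand of chromosome 17 (chr17:34969190-34972156 and chr17:34956436-34959238), and start 12918 bases apart. Their coding parts were 99.43% identical, with 8 mismatches and 3 gap bases, whereas the 3′ untranslated parts (810 and 643 bases) were 47.3% identical. Of all stretches of 100 bases in the Hspa1a transcript, 48.6% also occurred in a transcript of another gene, and 49.9% of those of Hspa1b, so how the deposited counting split such reads limits each gene's own value. Hspa1a also overlaps Gm20481 on the other strand over 2225 bases, and whether counting used strand is not given in the sources used here.

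Hspa1a was measured at 21.0, 20.8 and 19.7 TMM CPM in the young controls, 16.9, 13.1 and 18.3 in the aged controls, and 12.6, 9.05 and 12.2 with EGCG. The young libraries were highest and the EGCG libraries lowest, with no overlap between groups. By age the log2 fold change was -0.35 (SE 0.137, edgeR adjusted p = 0.0221), and between EGCG and aged control -0.52 (SE 0.146, edgeR adjusted p = 0.00618). The difference by age was lost without aged control library 2 (-0.21, edgeR adjusted p = 0.199), young library 1 (0.0635) or young library 2 (0.0551), and the difference with EGCG without EGCG library 2 (-0.38, edgeR adjusted p = 0.0787) or with lens fibre scaling (-0.22, edgeR adjusted p = 0.235). The EGCG call was also lost in limma on log2(FPKM + 1) (-0.32, adjusted p = 0.0936) and log2(FPKM + 0.1) (-0.38, adjusted p = 0.0855), and by library size the aged and EGCG ranges overlapped.

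Hspa1b went the other way with age. It was at 18.9, 17.3 and 19.1 TMM CPM in the young, 30.4, 28.4 and 35.0 in the aged, and 12.7, 15.8 and 14.0 in the EGCG libraries. The aged controls stood above both other groups, and the EGCG libraries below the young. The log2 fold change was 0.76 by age (SE 0.115, edgeR adjusted p = 1.39e-07) and -1.14 between EGCG and aged control (SE 0.12, edgeR adjusted p = 9.56e-11). Both kept their direction and call in all 18 other settings tried, from 0.39 to 0.83 by age and from -1.23 to -0.84 with EGCG. Between EGCG and young it was -0.38 (edgeR adjusted p = 0.00676), a call lost without EGCG library 1 (-0.30, edgeR adjusted p = 0.0519).

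Counted together, which does not depend on the split, the pair was at 39.8, 38.1 and 38.9 TMM CPM in the young, 47.3, 41.5 and 53.3 in the aged, and 25.3, 24.8 and 26.2 in the EGCG libraries. The EGCG libraries lay below every control library. Their sum was 1.86-fold lower than in the aged controls (log2 -0.90, SE 0.0951, edgeR adjusted p = 1.14e-10), a difference of -0.60 to -0.98 and called in each of the 15 other settings tried for the pair. By age the sum was 1.22-fold higher by TMM (log2 0.28, edgeR adjusted p = 0.0057), but the direction turned to -0.04 by library size (edgeR adjusted p = 0.727) and by lens fibre scaling (0.747), and the call was lost without aged control library 3 (0.20, edgeR adjusted p = 0.0723). In FPKM the sum was 15.6 ± 0.427 in the young and 15.2 ± 2.19 in the aged (SD, n = 3 each), with overlap. The FPKM ratio of Hspa1b to Hspa1a, a ratio added after the values were seen, was 0.894, 0.829 and 0.965 in the young, 1.79, 2.15 and 1.9 in the aged, and 1.0, 1.73 and 1.15 in the EGCG libraries. It was below 1 in every young library and highest in the aged; among the EGCG libraries, library 2 stood near the aged values.

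Hspa8 (chr9:40800984-40810087) encodes the HSP70 made at all times, the cognate HSC70, which also strips clathrin from vesicles. It was at 1900, 1925 and 1870 TMM CPM in the young, 3850, 3925 and 3863 in the aged, and 3696, 3623 and 3603 in the EGCG libraries. Aged and EGCG libraries were both well above the young. By age it was 2.04-fold higher (log2 1.03, SE 0.0369, edgeR adjusted p = 2.86e-28), and higher in all 19 other settings, from 0.71 to 1.04. With EGCG against aged control it was -0.09 (95% interval -0.17 to -0.02, edgeR adjusted p = 0.0608), not called. It was called at -0.10 by DESeq2 (adjusted p = 0.00335) and by edgeR without aged control library 1 (0.0431) or 3 (0.0398), and turned to 0.04 by library size and 0.20 by lens fibre scaling. Stretches of 100 bases shared with another gene's transcripts made up 62.8% of the Hspa8 transcript, most of them shared with Gm15459.

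Within each library, the FPKM of the inducible pair relative to Hspa8 does not depend on how libraries are scaled. Hspa8 exceeded the pair 63.5-, 67.3- and 64.2-fold in the young, 109-, 126- and 96.6-fold in the aged, and 195-, 195- and 183-fold in the EGCG libraries. The 3 groups did not overlap. The log2 ratio was -6.02 ± 0.044 in the young, -6.78 ± 0.19 in the aged and -7.58 ± 0.052 with EGCG (SD, n = 3 each; exact permutation p = 0.1 for each pair of groups, two-sided, the smallest 3 against 3 can give; 0.12 after adjustment over 12 ratio comparisons).

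Dnajb1 (chr8:83608193-83612653) encodes a J-domain protein that delivers clients to HSP70. Its libraries read 250, 255 and 265 TMM CPM in the young, 391, 354 and 350 in the aged, and 307, 319 and 327 with EGCG. Aged libraries were highest and young lowest, without overlap in TMM CPM, while by library size the aged and EGCG ranges overlapped. It was 1.42-fold higher by age (log2 0.51, SE 0.0497, edgeR adjusted p = 1.37e-12; 0.18 to 0.55 over 19 other settings) and 1.15-fold lower with EGCG than in aged controls (log2 -0.20, edgeR adjusted p = 0.00147), but not called by library size (-0.07, edgeR adjusted p = 0.283) and turned to 0.10 by lens fibre scaling. Relative to Hspa8, its FPKM log2 ratio was -3.51 ± 0.06 in the young, -4.03 ± 0.097 in the aged and -4.14 ± 0.065 with EGCG (SD, n = 3). The ratio fell by 0.52 with age without overlap (exact permutation p = 0.1, adjusted 0.12); aged and EGCG ratios overlapped (exact permutation p = 0.2).

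Hsph1 (chr5:149614287-149636376) encodes HSP110, the nucleotide exchange partner of HSP70. The young libraries had 43.9, 38.1 and 43.9 TMM CPM, the aged 46.8, 48.9 and 53.3, and the EGCG libraries 31.5, 37.6 and 34.1. EGCG libraries were lowest in every case, while young and aged stood close. With EGCG it was 1.44-fold lower than in aged controls (log2 -0.53, SE 0.09, edgeR adjusted p = 7.96e-06), a call missed with lens fibre scaling (-0.23, edgeR adjusted p = 0.0618). The difference by age (0.24, SE 0.0876, edgeR adjusted p = 0.014) turned to -0.08 by library size and by lens fibre scaling, and was lost with DESeq2 (0.20, adjusted p = 0.073) and without aged control library 3 (0.0704) or young library 2 (0.124). No stretch of 100 bases in its transcript was shared with another gene.

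The HSP90 genes moved apart. Hsp90aa1 (chr12:110690605-110702728), the inducible form, was at 715, 708 and 729 TMM CPM in the young, 433, 503 and 498 in the aged, and 578, 580 and 564 in the EGCG libraries. The EGCG libraries lay between the controls, above every aged library and below every young one. It was 1.5-fold lower by age (log2 -0.59, SE 0.0476, edgeR adjusted p = 4.4e-15) and 1.2-fold higher with EGCG than in aged controls (log2 0.26, SE 0.0477, edgeR adjusted p = 2.12e-05), with the same direction and call in all 19 other settings of each, from -0.91 to -0.51 by age and from 0.20 to 0.56 with EGCG. This order, young then EGCG then aged, was also that of the summed retina markers given above, and 29.8% of genes tested had it. Stretches of 100 bases shared with other genes were 47.5% of its transcript.

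Hsp90ab1 (chr17:45567775-45573271), the form made at all times, was at 1897, 1882 and 1875 TMM CPM in the young, 2696, 2884 and 2759 in the aged, and 2521, 2577 and 2476 with EGCG. Aged libraries were highest and young lowest. It was 1.48-fold higher by age (log2 0.56, SE 0.0385, edgeR adjusted p = 1.37e-17; 0.24 to 0.59 over 19 other settings). The difference between EGCG and aged control was small, -0.14 (SE 0.0383, edgeR adjusted p = 0.0051), missed the threshold without aged control library 2 (-0.11, 0.0536), and became -0.01 by library size and 0.16 by lens fibre scaling. Hsp90ab1 exceeded Hsp90aa1 in FPKM 3.02-, 3.02- and 2.92-fold in the young, 7.08-, 6.52- and 6.3-fold in the aged, and 4.96-, 5.05- and 4.99-fold in the EGCG libraries. These ratios did not overlap between any groups (log2 Hsp90aa1 to Hsp90ab1 -1.58, -2.73 and -2.32; exact permutation p = 0.1, adjusted 0.12, for each pair of groups).

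**Figure D2:**
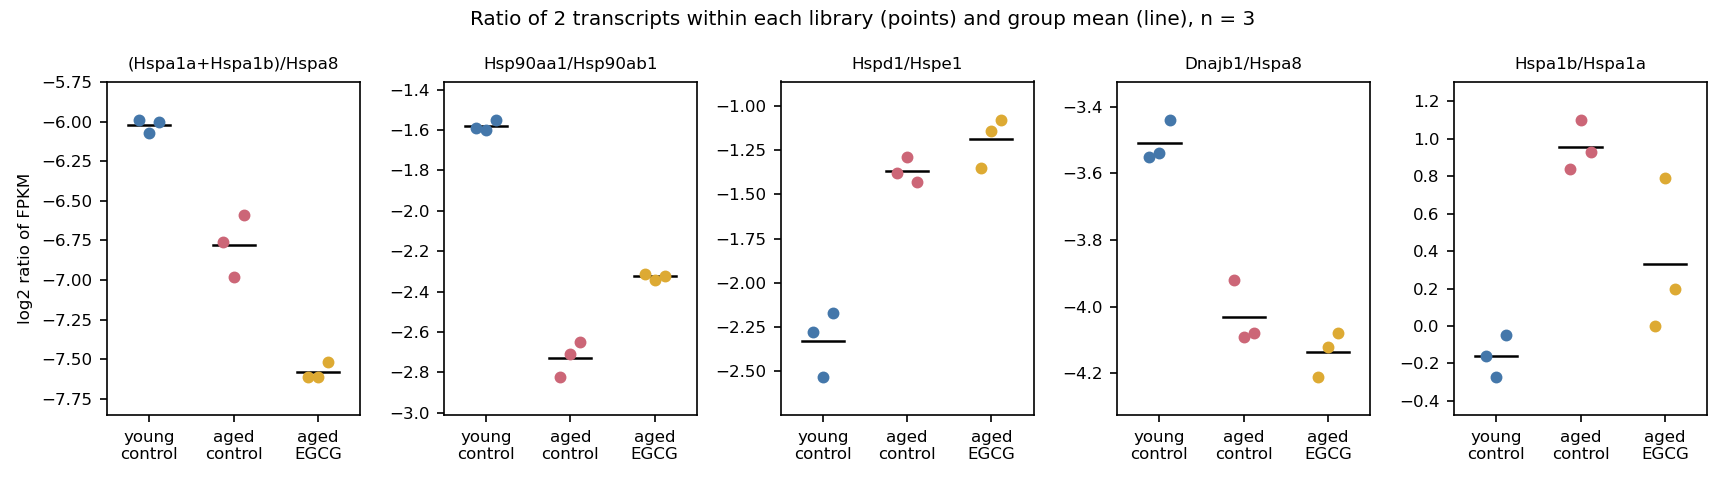
The log2 ratio of the FPKM of 2 transcripts (vertical axis) is plotted for each library as a point, with the group mean as a line (n = 3). The inducible HSP70 pair over Hspa8 was lowest with EGCG (-7.58) and Hsp90aa1 over Hsp90ab1 lowest in the aged controls (-2.73).

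Hspb1 (chr5:135887919-135889563) encodes HSP25, the mouse counterpart of human HSP27, a small heat shock protein that also binds actin. It showed the largest decline with age of the 10: 1280, 1276 and 1270 TMM CPM in the young, 473, 471 and 433 in the aged, and 300, 328 and 358 with EGCG. EGCG libraries were lowest and young libraries by far highest, with no overlap. By age it was 2.78-fold lower (log2 -1.47, SE 0.0494, edgeR adjusted p = 2.06e-29), and with EGCG a further 1.4-fold lower than in aged controls (log2 -0.48, SE 0.0496, edgeR adjusted p = 4.91e-11). Both kept direction and call in all 19 other settings, from -1.93 to -1.43 by age and from -0.54 to -0.18 with EGCG. Against the young, EGCG libraries were 3.88-fold lower (log2 -1.96, SE 0.0504, edgeR adjusted p = 2.57e-33). Ranked by FPKM among all genes, Hspb1 stood at place 27 in the young, 132 in the aged and 157 with EGCG. Its transcript shared 42.7% of its 100-base stretches with the pseudogene Hsp25-ps1.

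Hspd1 (chr1:55077835-55088243) and Hspe1 (chr1:55088132-55091307) encode HSP60 and HSP10 of the mitochondrial matrix, and their transcripts overlap over 112 bases on opposite strands. Hspd1 was at 102, 89.5 and 110 TMM CPM in the young, 160, 159 and 143 in the aged, and 141, 155 and 150 with EGCG. Young libraries were below all others, and aged and EGCG ranges overlapped. It was 1.54-fold higher by age (log2 0.62, SE 0.0631, edgeR adjusted p = 5.07e-12; 0.29 to 0.69 over 19 other settings), and between EGCG and aged control -0.05 (95% interval -0.18 to 0.07, edgeR adjusted p = 0.61), turning to 0.08 by library size and 0.25 by lens fibre scaling. Hspe1 had 147, 154 and 147 TMM CPM in the young, 124, 115 and 114 in the aged, and 107, 101 and 94.1 with EGCG. Here the young were highest and EGCG lowest, without overlap in TMM CPM, while by library size the aged and EGCG ranges overlapped.

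Hspe1 was 1.27-fold lower by age (log2 -0.34, SE 0.0583, edgeR adjusted p = 1.47e-06; -0.82 to -0.31 over 19 other settings). With EGCG it was 1.17-fold lower than in aged controls (-0.22, SE 0.0598, edgeR adjusted p = 0.00388), a call lost without EGCG library 3 (-0.17, 0.0536), by library size (-0.09, edgeR adjusted p = 0.26), with the length trend removed (-0.10, edgeR adjusted p = 0.199) and in limma on log2(FPKM + 1) (-0.10, adjusted p = 0.171). It turned to 0.08 by lens fibre scaling. These partners, whose starts share the printed run of motif matches, moved in opposite directions with age. The log2 FPKM ratio of Hspd1 to Hspe1 was -2.33 ± 0.18 in the young, -1.36 ± 0.073 in the aged and -1.19 ± 0.14 with EGCG (SD, n = 3). By age it rose by 0.96 (exact permutation p = 0.1, adjusted 0.12, no overlap), and the aged and EGCG ratios overlapped (difference 0.17, exact permutation p = 0.2). Stretches of 100 bases found in another gene's transcripts were 26.9% of the Hspd1 transcript and 20.4% of the Hspe1 transcript, and 0 of those of Dnajb1 and Hsp90ab1.

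**Figure D3:**
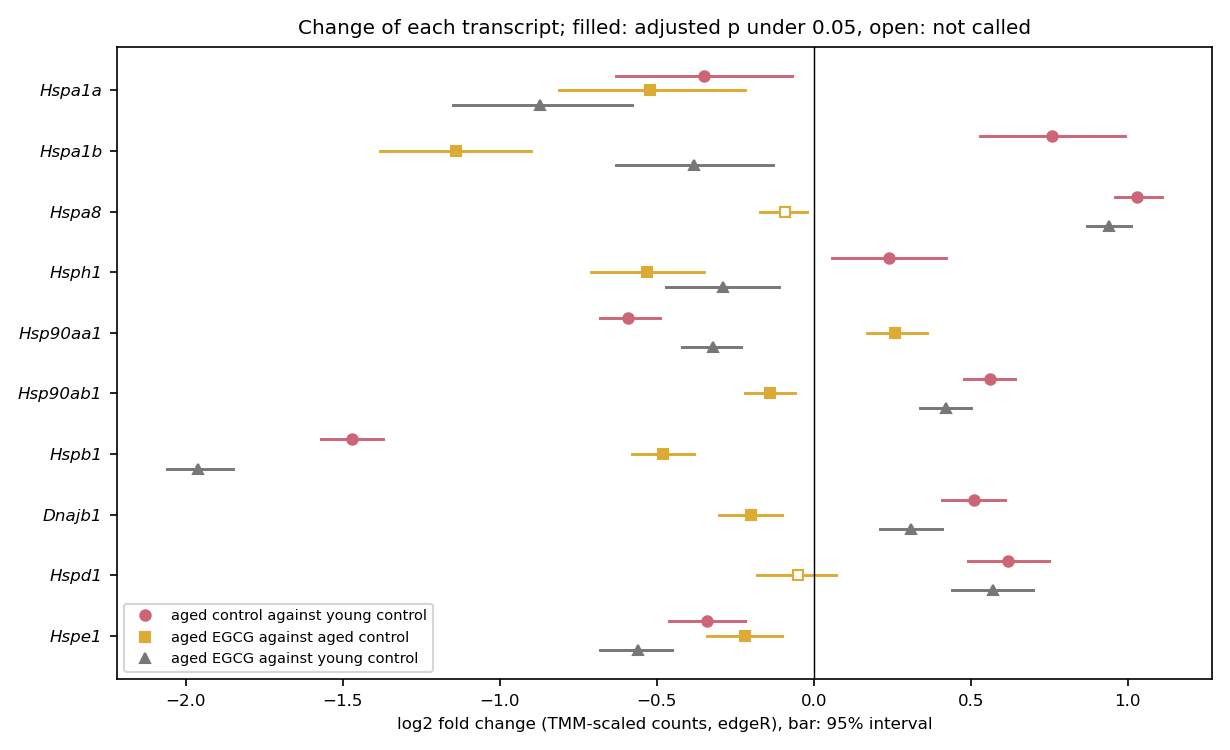
Log2 fold changes from edgeR (horizontal axis) are plotted for each transcript in the 3 comparisons, with 95% intervals as bars, filled where called and open where not. By age, 6 lie right and 4 left of 0, and Hsph1 turns with library size or lens fibre scaling; with EGCG against aged control, only Hsp90aa1 lies right of 0 and is called, Hspa8 and Hspd1 are not called, and those 2 turn by library size, joined under lens fibre scaling by Hsp90ab1, Dnajb1 and Hspe1.

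FPKM divides counts by a length for each gene and by the library's total, so an order between genes depends on the lengths used. It also depends on how reads shared between genes were counted, which is not given. Shared stretches of 100 bases ran from 0 in Hsph1, Dnajb1 and Hsp90ab1 to 62.8% in Hspa8. In FPKM, Hspb1 led the young libraries at a mean of 1591. Hspa8 (1016), Hsp90ab1 (847), Hsp90aa1 (283), Hspe1 (219), Dnajb1 (89.5), Hspd1 (43.7) and Hspa1a (8.26) followed in that order, each clear of the next. The last 2, Hspa1b (7.39) and Hsph1 (7.38), overlapped. For Hsph1 the deposited FPKM implies a length well above its longest protein-coding transcript of 3802 bases. In young library 1 it was at 49.7 CPM by library size but 7.75 FPKM. Its place among the 10 in each group therefore depends on that length. Removal of the length trend used the same implied lengths. In the aged controls Hspa8 (1663) led, followed by Hsp90ab1 (1000) and Hspb1 (458). Hsp90aa1 (151) and Hspe1 (138) then overlapped. In the EGCG libraries the first 3 places were the same, at 1704, 992 and 359. Hsph1 (5.28) and Hspa1b (4.96) overlapped there, and Hspa1a was last at 3.97. The 10 genes together took 0.712% to 0.721% of counts in the young, 0.724% to 0.766% in the aged and 0.755% to 0.762% in the EGCG libraries.

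Scaling moved the smaller differences. Library size alone shifted the median log2 fold change of all genes by -0.321 in the comparison by age and 0.127 between EGCG and aged control, and lens fibre scaling by -0.326 and 0.298. The 10 genes moved with it: Hspa8, for example, went from 1.03 to 0.71 by age under either. The share of higher calls among all called genes went with it: 51.1% by TMM, 31.3% by library size and 30.9% by lens fibre scaling by age, 57.4%, 83.5% and 96.2% between EGCG and aged control, and 50.7%, 35.8% and 48.6% between EGCG and young. Of the 10, 9 kept their direction by age under every scaling, and the exception was Hsph1. Between EGCG and aged control, Hspa1b, Hspb1 and Hsp90aa1 kept their direction and call under all.

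**Figure D4:**
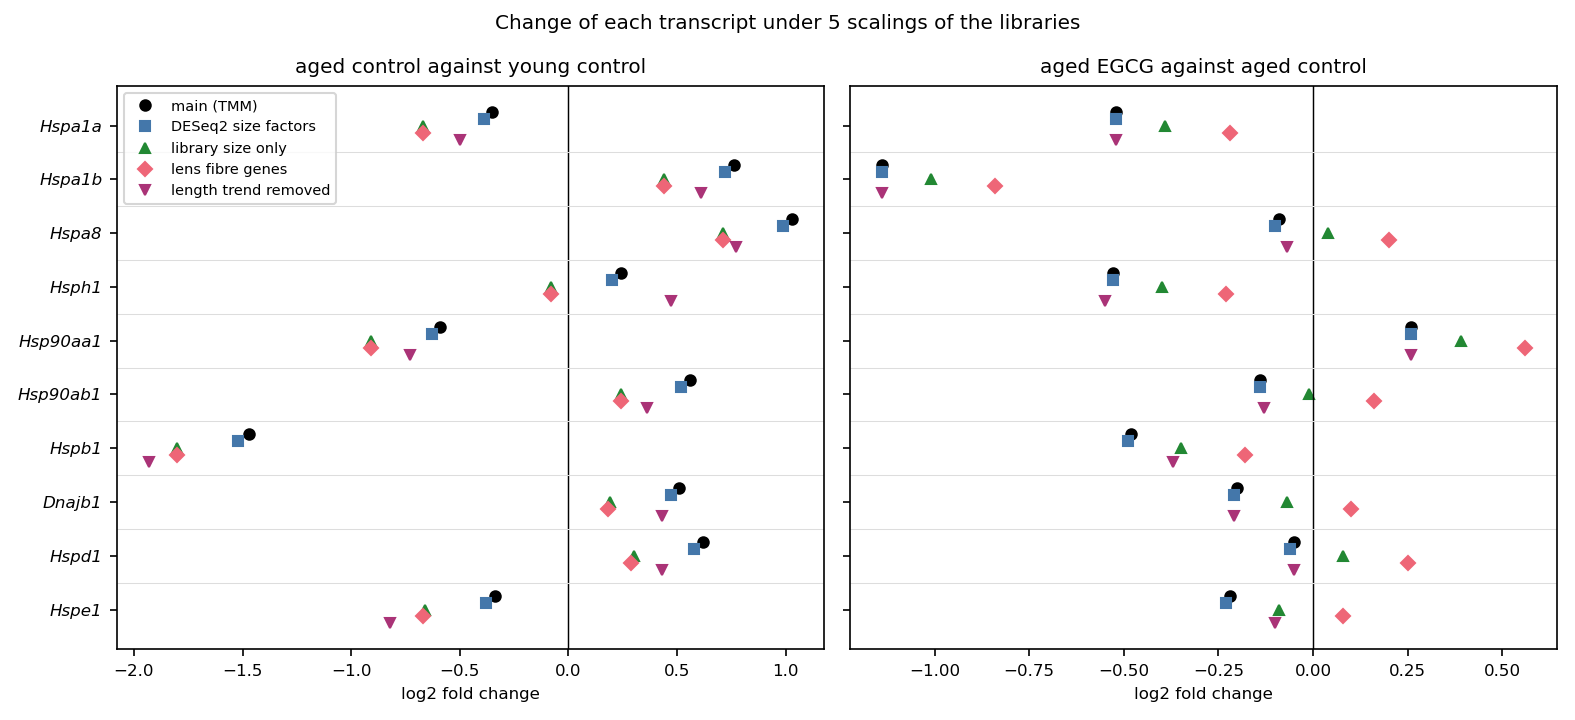
Log2 fold changes (horizontal axis) of each transcript under 5 scalings, for age (left) and for EGCG against aged control (right). Hsph1 crosses 0 by age with library size and lens fibre scaling (-0.08 each); on the right Hspa8 and Hspd1 cross 0 with both, and Hsp90ab1, Dnajb1 and Hspe1 with lens fibre scaling.

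Companion genes of the same pathways were taken from lists of symbols, and their counts are descriptions. Median log2 fold changes by age were 0.67 for the cytosolic chaperonin, 0.52 for co-chaperones, 0.27 for endoplasmic reticulum chaperones, 0.41 for mitochondrial chaperones and 0.85 for other small heat shock proteins, beside 0.02 for all genes tested. They were 0.37 for other HSP70 and HSP110 genes, 0.30 for other J-domain proteins, 0.36 for heat shock factors and -0.46 for immediate early genes. By library size alone these age medians were 0.35, 0.20, -0.05, 0.08, 0.53, 0.05, -0.02, 0.04 and -0.79 in the same order, so those of endoplasmic reticulum chaperones and other J-domain proteins turned. With EGCG against aged control, list medians ran from -0.43 (immediate early genes) to 0.05 (other HSP70 and HSP110 genes), and by lens fibre scaling from -0.13 (immediate early genes) to 0.35 (other HSP70 and HSP110 genes), where 7 of the 9 were above 0. Of 8 subunits of the cytosolic chaperonin that folds actin and tubulin, 8 were higher with age, and 5 by library size alone. Cct2 was 2.19-fold higher (165 to 361 TMM CPM, edgeR adjusted p = 1.56e-24) and Cct7 2.11-fold (edgeR adjusted p = 1.17e-24). Between EGCG and aged control edgeR with TMM called only Cct2, while DESeq2 called 2 lower and lens fibre scaling 7 of the 8 higher (median 0.26). Cct2 was 1.13-fold lower (edgeR adjusted p = 0.00742), a call lost without aged control library 2 (0.0719) or EGCG library 2 (0.0694) and turned to 0.13 by lens fibre scaling. Of 19 co-chaperones of HSP70 and HSP90, 14 were higher and 1 lower with age, 9 and 3 by library size. Stub1, a ubiquitin ligase that works with HSP70, was 2.17-fold higher (edgeR adjusted p = 4.92e-25) and Bag1 2.18-fold (edgeR adjusted p = 1.1e-23). The 1 lower was Unc45a, a myosin chaperone, at 1.76-fold lower (edgeR adjusted p = 2.6e-10).

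With EGCG, 4 co-chaperones were lower than in aged controls, against 4 higher and 1 lower by library size and 11 higher by lens fibre scaling. They were Bag1 (log2 -0.19), Bag2 (-0.92), Bag3 (-0.37) and Stip1 (-0.14), with edgeR adjusted p of 0.00432, 0.0121, 0.00761 and 0.0235. Bag1 was lost without aged control library 1 (0.0641), Bag2 without that library (0.0521) or EGCG library 2 (0.12), Bag3 without aged control library 2 (0.0719), and Stip1 without aged control library 2, EGCG library 1 or EGCG library 3 (0.0588 to 0.148). Bag3, which links HSP70 to small heat shock proteins, was 2.21-fold higher by age (15.9 to 35.2 TMM CPM, edgeR adjusted p = 1.09e-12). Of 14 chaperones of the endoplasmic reticulum, 9 were higher with age, with 4 higher and 4 lower by library size. With EGCG 2 were lower, against 1 higher and 0 lower by library size and 8 higher and 0 lower by lens fibre scaling. They were Hspa5 (1.16-fold, edgeR adjusted p = 0.000862) and Pdia3 (1.13-fold, edgeR adjusted p = 0.012), and both turned with lens fibre scaling (0.09 and 0.13). The call of Pdia3 was also lost without aged control library 2 (0.0717) or EGCG library 2 (0.0518). Of 11 other mitochondrial chaperones and proteases, 7 were higher by age (5 higher and 4 lower by library size), among them Clpp 1.97-fold (edgeR adjusted p = 3.73e-13). Between EGCG and aged control edgeR called 0 of the 11, with 1 at an unadjusted p under 0.05, and DESeq2 called 0, whereas lens fibre scaling called 6 higher (median 0.22).

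Other small heat shock proteins mostly rose with age, as Hspb1 fell. Of 6 tested, 5 were higher and 1 lower (3 and 1 by library size). The 5 were Cryaa, Cryab, Hspb2, Hspb3 and Hspb8, and the calls of Hspb3 (without young library 3, 0.0563) and of Hspb3 and Hspb8 by library size (0.0781 and 0.185) were lost. Cryaa and Cryab, the alpha crystallins, went from 71312 to 129148 and from 12913 to 23696 TMM CPM (1.81- and 1.84-fold, edgeR adjusted p = 5.87e-30 and 5.77e-28). Hspb6 fell from 20.6 to 6.45 TMM CPM (3.19-fold, edgeR adjusted p = 4.62e-14). With EGCG 4 were lower and 1 higher than in aged controls (3 and 1 by library size, 1 and 1 by lens fibre scaling): Cryaa, Cryab, Hspb2 and Hspb8 were lower. Hspb8 (-0.57, edgeR adjusted p = 0.0206) was lost without aged control library 2 (0.0674) or EGCG library 1 (0.211). Cryab was 1.34-fold lower (edgeR adjusted p = 2.04e-15) and Cryaa 1.23-fold (edgeR adjusted p = 2.63e-12; 0.00 by lens fibre scaling), while Hspb6 was 2.62-fold higher at 16.9 TMM CPM (edgeR adjusted p = 1.53e-10).

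Of the 7 other HSP70 and HSP110 genes tested, 4 were higher and 3 lower with age (0 and 3 by library size). The higher were Hspa2, Hspa4, Hspa13 and Hspa14, from 1.3- to 1.38-fold, and the lower Hspa12a, Hspa4l and Hspa12b, the last lost without young library 1 (0.0575). Hspa12a was 7.97-fold lower (60.5 to 7.56 TMM CPM, edgeR adjusted p = 1.19e-26) and Hspa4l 2.35-fold lower (edgeR adjusted p = 1.71e-20). With EGCG 2 were higher than in aged controls, 4 by lens fibre scaling: Hspa12a was 2.85-fold higher (edgeR adjusted p = 7.06e-14) and Hspa4l 1.16-fold (edgeR adjusted p = 0.0314, lost without aged control library 1, at 0.22, or any 1 of the EGCG libraries, at 0.0523 to 0.0786). Of 10 other J-domain proteins, 6 were higher and 2 lower by age (3 and 3 by library size). Dnajc2 was 2.22-fold higher (edgeR adjusted p = 1.03e-14), Dnaja4 1.27-fold lower (edgeR adjusted p = 0.00348) and Dnajc5 1.71-fold lower (edgeR adjusted p = 4.52e-16). Dnajc5, a J-domain protein of synaptic vesicles, was the 1 called with EGCG by TMM, at 1.2-fold higher (edgeR adjusted p = 0.000621), where library size gave 3 higher and lens fibre scaling 8 of the 10. Hspa12a, Hspa4l, Dnajc5 and Hspb6 followed the same order of groups as the summed retina markers, as did 29.8% of genes tested. The part of retina RNA in their values was not tested.

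Of the 4 tested heat shock factors and regulators, Hsf4, a heat shock factor needed for lens development, was 1.39-fold higher with age (edgeR adjusted p = 1.25e-09). That call was lost with lens fibre scaling (0.15, edgeR adjusted p = 0.0649). By age Hsbp1, a small protein that binds heat shock factor trimers, was 1.7-fold higher (edgeR adjusted p = 3.61e-16). Hsf2 was 1.48-fold lower (edgeR adjusted p = 0.00058, lost at -0.18 with the length trend removed). Hsbp1 was the 1 called with EGCG, -0.18 (edgeR adjusted p = 0.0167), lost without aged control library 2, EGCG library 1 or EGCG library 3 (0.0587 to 0.0954) and turned to 0.12 by lens fibre scaling, and by library size none of the 4 was called. Immediate early genes, which respond within minutes to handling or stress of cells, were 5 higher and 11 lower of 21 with age, and 2 higher and 10 lower with EGCG, with 7 higher and 5 lower there by lens fibre scaling. Fosb was 8.63-fold lower by age (edgeR adjusted p = 3.96e-24) and 3.99-fold lower with EGCG (edgeR adjusted p = 4.82e-10), and the 24 genes of the list summed to 949 to 957 TMM CPM in the young, 663 to 726 in the aged and 580 to 581 in the EGCG libraries. That order, young then aged then EGCG, was by TMM that of Hspa1a, Hspb1 and Hspe1, and of 14.6% of genes tested. Hspe1 turned to 0.08 between EGCG and aged control by lens fibre scaling. The part of what moved the immediate early genes in these heat shock proteins was not tested.

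**Figure D5:**
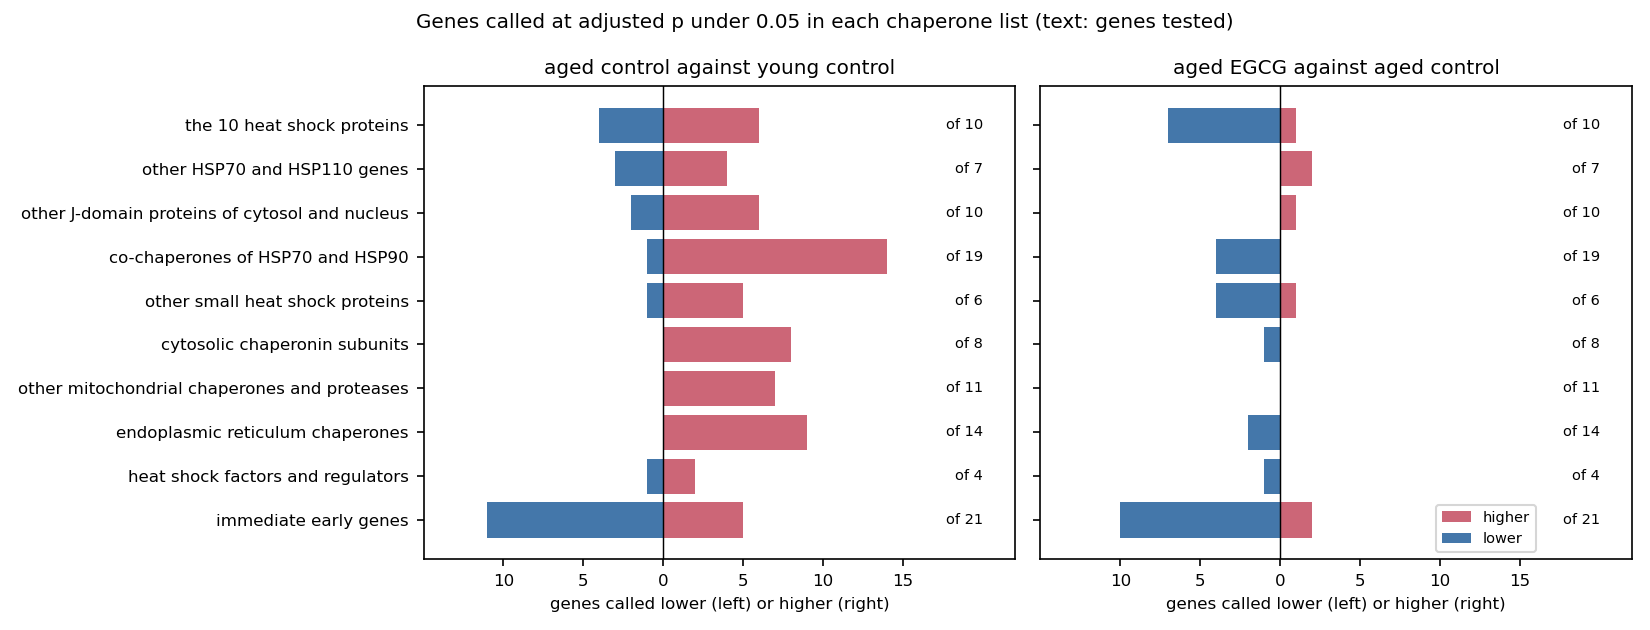
Bars give the number of genes called higher (right of 0) and lower (left) in each chaperone list, with the number tested at the right edge, for age (left panel) and for EGCG against aged control (right panel). By age most lists lean to higher calls by TMM (8 of 8 chaperonin subunits and 14 of 19 co-chaperones, 5 and 9 by library size). Of all genes tested, 35.4% were called higher by age and 33.8% lower. By library size the lean was lost for other HSP70 and HSP110 genes (0 higher, 3 lower). The same held for other J-domain proteins (3 and 3) and endoplasmic reticulum chaperones (4 and 4). With EGCG 4 of 19 co-chaperones are lower, where lens fibre scaling gives 11 higher.

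By the rule for similar profiles, the 5 genes whose course over the 9 libraries was closest to that of Hspa1a and Hspa1b summed were Reln, Il33, Fbn1, Vcan and Mest, out of 10512 candidates. The measure is the root mean square difference of log2(TMM CPM + 1) profiles, each centred on its mean, and was 0.0845 for Reln, 0.107 for Il33, 0.128 for Fbn1, 0.13 for Vcan and 0.135 for Mest, beside 0.372 for the summed profile against its own mean. Reln went from 119 to 138 to 82.2 TMM CPM and Il33 from 29.9 to 38.6 to 21.6 in young, aged and EGCG libraries.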

How the data were processed

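RNA from the mouse anterior lens capsule was sequenced after SMARTER mRNA-Seq library preparation, per the labels' protocols, and the genome builds GRCm38 and mm10 are named in the submitters' processing notes. The deposited gene counts are the authors' raw whole-number counts per gene symbol. The deposited FPKM values are, per the values themselves, the authors' counts over a fixed length for the gene and over the library's total count, with 0 entries off by more than 0.01%. Aligner, counter and strand use: not given in the sources used here. Groups and replicate numbers were read from the sample titles.

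Counts were fitted with edgeR 4.0.16 (quasi-likelihood test, TMM factors, filterByExpr with a minimum count of 10, leaving 13711 genes) in R 4.3.3, with all 9 libraries in 1 fit and Benjamini-Hochberg adjustment over all genes tested. A call is an adjusted p under 0.05, and fold changes have 95% intervals. The fitted biological coefficient of variation was 7.89%, and libraries of 1 group correlated at 0.9896 to 0.9928 in log2 CPM. A total of 3 counts corresponds to 0.182 to 0.228 CPM. Within-library ratios used deposited FPKM and an exact two-sided permutation test. The fit was tested on simulated counts. Alternatives were DESeq2 1.42.0, limma 3.58.1 on log2(FPKM + 1) and log2(FPKM + 0.1), other scalings, no low-count filter, a replicate block, pairwise fits, removal of a length trend, each library left out, and the Hspa1a and Hspa1b counts summed. Alternatives for the summed pair were added after its values were seen.

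The 10 genes, the companion lists and the cell and tissue markers were chosen with earlier results of these data known. All 10 genes are named; from each companion list, up to 4 called genes with the smallest p over the comparisons by age and of EGCG with aged control, plus all of a count of 5 or fewer; and the 5 genes, at 5 TMM CPM or more on average, closest in profile to Hspa1a and Hspa1b summed. Promoter windows are RefSeq's for GRCm38.p6, and gene positions and transcripts are from GENCODE for GRCm38.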

Additional observations from a re-analysis of the deposited data

How the results depend on the processing

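Over the alternatives, 519 of the members' values kept direction and side of the threshold, 26 lost a call, 4 gained one and 15 turned sign. Every value that turned did so with library size only, lens fibre scaling or FPKM. By age these were Hsph1 at -0.08 (library size), -0.08 (lens fibre), -0.07 (FPKM + 1) and -0.08 (FPKM + 0.1). The summed Hspa1a and Hspa1b pair turned by age to -0.04, -0.04, -0.04 and -0.05 in that order of settings, alternatives chosen after seeing the data. Between EGCG and aged control, Hspa8 went to 0.04, 0.20, 0.04 and 0.04 and Hspd1 to 0.08, 0.25, 0.08 and 0.08 in that order of settings. Lens fibre scaling also turned Hsp90ab1 (0.16), Dnajb1 (0.10), Hspe1 (0.08), Bag1 (0.11), Cryaa (0.00), Cct2 (0.13), Pdia3 (0.13), Hsbp1 (0.12), Stip1 (0.15) and Hspa5 (0.09). These settings differ from TMM by the shift of all genes given above. For EGCG against aged control, members called numbered 5 by library size and 4 with either FPKM pseudocount, against 8. Members lower numbered 4 (library size), 2 (lens fibre), 3 and 3 (FPKM), against 7, and members higher 4 by lens fibre scaling, against 1. Of all genes, 2939 (library size), 2847 (lens fibre), 2947 and 2940 (FPKM) were higher by age, against 4847. Between EGCG and aged control, 6550 were called by lens fibre scaling, against 3300. Higher genes numbered 3086 (library size) and 6304 (lens fibre), against 1894, and lower genes 611, 246, 507 and 540 in the order above, against 1406. Leaving out each library in turn left 5 to 6 members higher and 3 to 4 lower by age, and 1 higher and 6 to 8 lower between EGCG and aged control.

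Same-numbered libraries did not deviate together (correlations of their deviations from the group means of -0.005 to 0.036), so the numbers are not taken as pairs. With the replicate block, 8 members were lower with EGCG than in aged controls, Hspa8 being added at -0.09 (edgeR adjusted p = 0.0367), and all 10 were called by age. Hspa1a had the lowest count of the 10 in a single library, 132, and its calls were lost in 4 of the fits that leave out a library.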
